A study of Homo sapiens with 6 samples.

Results

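The 6 genes ADAM8, ADAM9, ADAM15, ADAM17, ADAM28 and ADAMTS1 were taken by name from the 770 genes of a tumor progression panel, where 8 genes in all carried an ADAM or ADAMTS symbol. They were measured in NIH:OVCAR-3, a long-established serous ovarian carcinoma line of human origin, which was cultured alone. Low density and high density cultures were each held for 1 week in the same RPMI medium, with 20% fetal bovine serum, glucose, HEPES, pyruvate and insulin. The nCounter assay, in which each RNA molecule caught by a probe is read as one color-coded barcode, was run on 100 ng of total RNA from 3 low density and 3 high density samples, and the labels name no other treatment or genetic change in either group. The medium density of the design was not analysed here. The methods give at least triplicate repeats for all experiments but do not state whether a group's 3 samples in this assay were independent cultures, and the p-values therefore reflect the spread among these samples alone, possibly a technical one.

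ADAM proteins are zinc metalloproteases anchored in the cell membrane. They cut other membrane proteins just outside the cell, which sheds growth factors, cytokines, receptors and adhesion molecules from the surface, and their disintegrin domain can bind integrins. ADAMTS proteins are secreted relatives that carry thrombospondin motifs and cut proteins of the extracellular matrix. Tissue inhibitors of metalloproteinases (TIMPs) block members of both groups to different degrees. The panel measured RNA, and neither protein nor cleavage was measured.

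The depth was 554858 to 696309 barcode counts per sample. Values are given as normalized barcode counts, as deposited by the authors. That they had been scaled with one factor per sample was inferred from the values. The background limit of a sample was the mean plus 2 SD of its 8 negative control probes, and on the normalized scale it lay between 12.3 and 18.1. All 10 epithelial markers on the panel, among them EPCAM, CDH1 and KRT7, were above the limit in all 6 samples. Of 5 leukocyte and 7 endothelial markers, none was above it in all 6 samples, and of 12 fibroblast markers 1 was (COL1A1). The summed level of the epithelial markers was 21880 to 22745 in low density samples and 29487 to 30369 in high density samples. By the limma test used for all genes, 7 of the 10 were lower at low density and 1 was higher. The largest falls were those of KRT19 (log2 fold change −0.97), ELF3 (−0.82), CLDN4 (−0.54) and CLDN3 (−0.52). The rise was that of ST14 (0.13), whose call was lost under quantile normalization (limma adjusted p = 0.183) and without low density replicate 1 (0.0810). Of all genes tested, 27.5% were lower and 38.8% higher. The sums were 36.6 to 44.2 against 41.4 to 54.8 for the leukocyte markers, 54.55 to 62.5 against 59.7 to 76.8 for the endothelial markers and 129 to 137 against 117 to 144 for the fibroblast markers. The part of these differences in the results was not tested.

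ADAMTS1, ADAM9, ADAM15 and ADAM17 were clearly detected in NIH:OVCAR-3 cells at both densities, while ADAM8 and ADAM28 lay at the level of the negative controls. At low density ADAMTS1 rose 1.69-fold and ADAM9 rose 1.34-fold. ADAM15 did not pass the test, and ADAM17 fell to 0.923 of its high density level, a call that depended on the scaling and on single samples. In these bulk samples, fewer cells with an RNA and less of it per cell cannot be told apart. Among all 740 genes other than the panel reference genes, 62.3% were above the background limit in every sample, and 4 of the 6 proteases were.

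**Figure D1:**
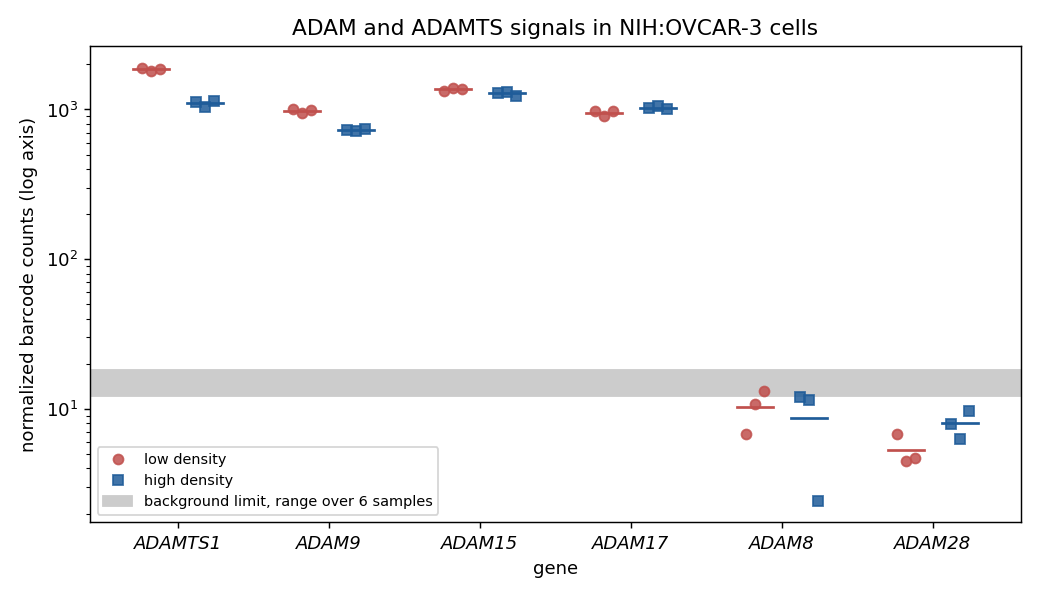
Normalized barcode counts of the 6 proteases (log axis) in each low density sample (circles) and high density sample (squares), with a line at each group mean of 3 samples and a gray band for the background limits of the 6 samples, 12.3 to 18.1. ADAMTS1, ADAM9, ADAM15 and ADAM17 sit between 719.96 and 1905, far above the band, while ADAM8 and ADAM28 sit between 2.44 and 13.15.

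Fold changes were fitted with limma over 480 genes with a mean of at least 20, on the scale of log2(value + 1), with Benjamini-Hochberg adjustment of the p-values over all 480 and a threshold of 0.05. Of these genes 66.2% passed, with 38.8% higher and 27.5% lower at low density. Of the 4 proteases tested, 2 rose, 1 fell and 1 did not pass, so the share that changed was close to that of the panel. ADAM8 and ADAM28 did not reach the floor and were not tested. The median log2 fold change of the 4 was 0.26 against 0.04 over all genes tested.

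ADAMTS1 encodes a secreted protease that cuts the proteoglycans aggrecan and versican. It gave 1905, 1813 and 1872 normalized counts in the 3 low density samples and 1115, 1046 and 1145 in the 3 high density samples. Every low density sample lay above every high density sample, by a gap many times wider than the spread within either group. The group means were 1863 ± 46.7 and 1102 ± 50.3 (SD, n = 3 each), for a log2 fold change of 0.76 ± 0.04 (SE) and a limma adjusted p of 1.2e-50. That p rested on a spread shared over all genes. Without the mean trend of the prior it was 4.9e-05, and the smallest exact permutation p that 3 against 3 samples allow is 0.1. Of the 480 genes, 43 had a larger rise.

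ADAM9 encodes a widely expressed membrane-anchored sheddase, also called meltrin gamma. Low density samples held 1006, 945.66 and 990.06 normalized counts, against 731.24, 719.96 and 737.45 in high density samples. The groups were again fully apart, and the high density samples differed from each other by less than the low density samples did. Means were 981 ± 31.4 and 729.55 ± 8.87 (SD, n = 3 each), and the log2 fold change was 0.43 ± 0.05 (SE, limma adjusted p = 4.1e-15, or 2.6e-04 without the mean trend). A larger rise was seen for 105 of the 480 genes.

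ADAM15 encodes a membrane-anchored protease whose disintegrin domain carries an RGD integrin-binding motif in human. Counts were 1321, 1387 and 1372 at low density against 1292, 1316 and 1234 at high density. The lowest low density sample and the highest high density sample were nearly level. The log2 fold change was 0.09 ± 0.04 (SE), with a 95% interval from −0.0011 to 0.175, and did not pass (limma adjusted p = 0.0757). The interval left out a rise as large as that of ADAM9. Of the genes tested, 66% had groups that did not overlap, with low density above in 38.8% and below in 27.3%, and ADAM15 belonged to the former.

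ADAM17 encodes the tumor necrosis factor alpha converting enzyme (TACE), the main sheddase of that cytokine and of several ligands of the EGF receptor. The low density samples gave 969.45, 899.23 and 979.73, and the high density samples gave 1026, 1050 and 1012. The groups did not overlap, and low density replicate 2 lay well under the others of its group. The log2 fold change was −0.12 ± 0.05 (SE, 95% interval −0.21 to −0.02), and the gene passed with a limma adjusted p of 0.0264. The call was lost without low density replicate 2 (−0.078, adjusted p = 0.201), without high density replicate 1 (−0.12, adjusted p = 0.0509) and without high density replicate 2 (−0.10, adjusted p = 0.0847). With counts scaled to the 6 positive control probes, the value was 0.030 (adjusted p = 0.701).

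ADAM8 and ADAM28 encode membrane-anchored proteases best known from leukocytes, ADAM28 in particular from lymphocytes. ADAM8 gave 6.80, 10.72 and 13.15 at low density, against 11.95, 11.51 and 2.44 in the other group. Only 1 of the 6 values, from low density replicate 3, was above the limit of its sample, by a factor of 1.07. These values stood for 2 to 14 barcodes per sample, and the exact 95% Poisson interval of the highest, 14 barcodes, ran from 7.65 to 23.5. ADAM28 gave 6.80, 4.46 and 4.70 at low density, against 7.97, 6.28 and 9.75 at high density, below the limit in all 6 samples. Its counts were 5 to 8 barcodes, and the interval of the highest ran from 3.45 to 15.8. A change with density in either gene could not be told from the background of the negative controls. These intervals cover counting error only. The pan-leukocyte marker PTPRC was also at background, with 1.00 to 8.97 normalized counts.

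RefSeq (GRCh38.p14) promoter sequences were matched for 3 of the 6 members, ADAM15, ADAM17 and ADAM8. The promoter set used held none of the other members, so no promoter of a protease gene that rose is shown. Among the 3 are strongly detected genes with little change, ADAM15 and ADAM17, and a gene at background, ADAM8. Each is given 5′ to 3′ on the strand of the gene, for the 250 bases before the annotated start, with the GC box GGGCGG, searched on both strands, in capitals. The ADAM15 promoter is chr1:155051066-155051315 (plus strand), that of ADAM17 is chr2:9555831-9556080 (minus strand) and that of ADAM8 is chr10:133276869-133277118 (minus strand).
ADAM15: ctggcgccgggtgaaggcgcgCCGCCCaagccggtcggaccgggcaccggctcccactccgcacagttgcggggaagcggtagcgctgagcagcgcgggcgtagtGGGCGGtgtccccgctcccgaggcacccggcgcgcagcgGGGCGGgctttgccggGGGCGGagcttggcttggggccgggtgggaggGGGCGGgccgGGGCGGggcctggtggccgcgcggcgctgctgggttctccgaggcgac
ADAM17: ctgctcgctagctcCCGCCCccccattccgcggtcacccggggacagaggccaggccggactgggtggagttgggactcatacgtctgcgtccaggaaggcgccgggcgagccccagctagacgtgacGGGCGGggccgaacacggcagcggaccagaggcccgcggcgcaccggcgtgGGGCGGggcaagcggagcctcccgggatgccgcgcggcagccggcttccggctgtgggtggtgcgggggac
ADAM8: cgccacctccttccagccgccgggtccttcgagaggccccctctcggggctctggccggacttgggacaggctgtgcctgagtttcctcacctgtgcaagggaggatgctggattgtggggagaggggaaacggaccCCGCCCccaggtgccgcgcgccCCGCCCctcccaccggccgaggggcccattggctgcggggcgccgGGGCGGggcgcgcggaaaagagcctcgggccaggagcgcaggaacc

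The GC box was found 6 times in the ADAM15 promoter and 3 times each in those of ADAM17 and ADAM8, and 42.6% of all 35116 promoters in the table held it in the same window. All 3 were rich in G and C (79.6%, 75.6% and 73.6%), against a median of 58.0% over all promoters. The ADAM15 window held 36 CpG dinucleotides, that of ADAM17 31 and that of ADAM8 23, where the median was 11. The TEAD-type motif GGAATG, searched on both strands, matched once in ADAM17, on the opposite strand and beginning 227 bases before the start, and neither in ADAM15 nor in ADAM8 (11.9% of all promoters). The ETS-type motif CCGGAA also matched once in ADAM17, again on the opposite strand and beginning 26 bases before the start, and in neither of the others (14.5%). The AP-1 motif TGANTCA was in none of the 3 (6.57%). GC content was thus above the median, and GC boxes were present, in the gene at background as well as in both detected genes. How many GC boxes the other promoters held was not counted.

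The other two family genes on the panel were ADAMTS8 and ADAMTS12, secreted proteases of the same family as ADAMTS1. ADAMTS8 was weakly detected in all 6 samples (42.7 to 57.3) and did not pass (log2 fold change 0.11 ± 0.17, limma adjusted p = 0.604). ADAMTS12 gave 9.71, 8.93 and 8.45 at low density, all below the limits of those samples, and 25.9, 20.93 and 25.6 at high density, all above them. Against the mean low density limit of 14.3 it was at least 1.69-fold higher at high density. It missed the floor of 20 with a mean of 16.6 and was therefore outside the main test. With no filter its adjusted p was 9.8e-05. Its direction was opposite to that of ADAMTS1.

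A scaling factor cancels between genes of the same sample, so differences in response between the proteases were read from their ratios within each sample. Probes are not calibrated against each other, so a ratio says nothing of the relative number of RNA molecules and only its change with density was compared. The ratio of ADAM9 to ADAM17 was 1.04, 1.05 and 1.01 at low density, against 0.713, 0.686 and 0.729 at high density. The difference of the log2 ratio was 0.54, against a pooled SD of 0.04 between samples. The ratio of ADAM17 to ADAMTS1 was 0.509, 0.496 and 0.524 at low density against 0.921, 1.003 and 0.884 at high density, a log2 difference of −0.87 with a pooled SD of 0.07. This pair stood farthest apart of the 6 pairs compared.

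ADAMTS1 also rose more than ADAM9, with an ADAM9 to ADAMTS1 ratio of 0.527 ± 0.0040 at low and 0.663 ± 0.0226 at high density (SD, n = 3 each). The smallest shift was between ADAM15 and ADAM17, whose ratio was 1.43 ± 0.0944 at low and 1.24 ± 0.0217 at high density. In all 6 pairs the 3 low density ratios did not overlap with the 3 high density ratios. The share of all gene pairs without overlap was not computed, and of single tested genes 66% did not overlap. The 6 pairs share 4 genes and are not separate results. The two-sided exact permutation p was 0.1 for each pair, before and after adjustment over the 6 pairs, which is the smallest this design allows. In these 6 samples the change of the 4 genes was ordered from ADAMTS1 over ADAM9 and ADAM15 to ADAM17. Neighbors in that order were apart by more than the spread between samples.

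**Figure D2:**
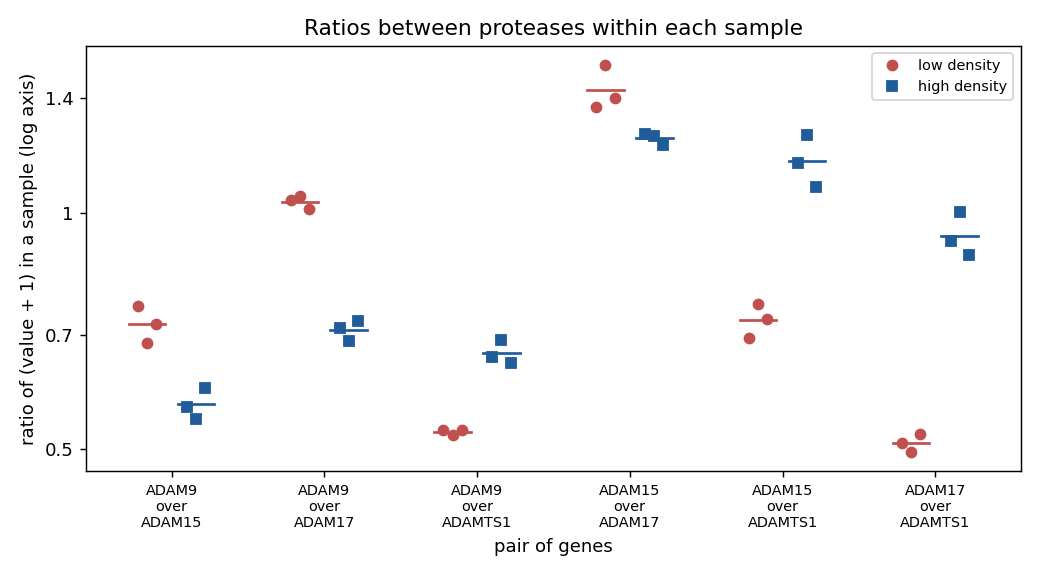
Ratio of (value + 1) of one protease to another within each sample (log axis) for the 6 pairs of detected proteases, with low density samples as circles, high density samples as squares and a line at each group mean. The groups do not overlap in any pair, and ADAM17 over ADAMTS1 shows the widest gap (0.496 to 0.524 against 0.884 to 1.003).

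The position of zero, in contrast, depended on the scaling. Scaling to the positive controls shifted the log2 fold change of the median gene by 0.15 and turned the panel from 186 rises and 132 falls to 240 and 76. Relative to the median gene, ADAMTS1 stood at 0.71, ADAM9 at 0.38, ADAM15 at 0.04 and ADAM17 at −0.16 under the deposited scaling. The positive controls had to give the same, since one factor per sample cancels against the median gene. Under quantile normalization, where it need not cancel, the values were 0.74, 0.38, −0.0099 and −0.12. ADAMTS1 and ADAM9 rose under all 4 scalings, with log2 fold changes from 0.72 to 0.90 and from 0.37 to 0.57. ADAM15 ranged from −0.022 under quantile normalization to 0.23 under the positive controls, where it passed (limma adjusted p = 4.1e-04). For ADAM17 the range was −0.14 to 0.030.

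**Figure D3:**
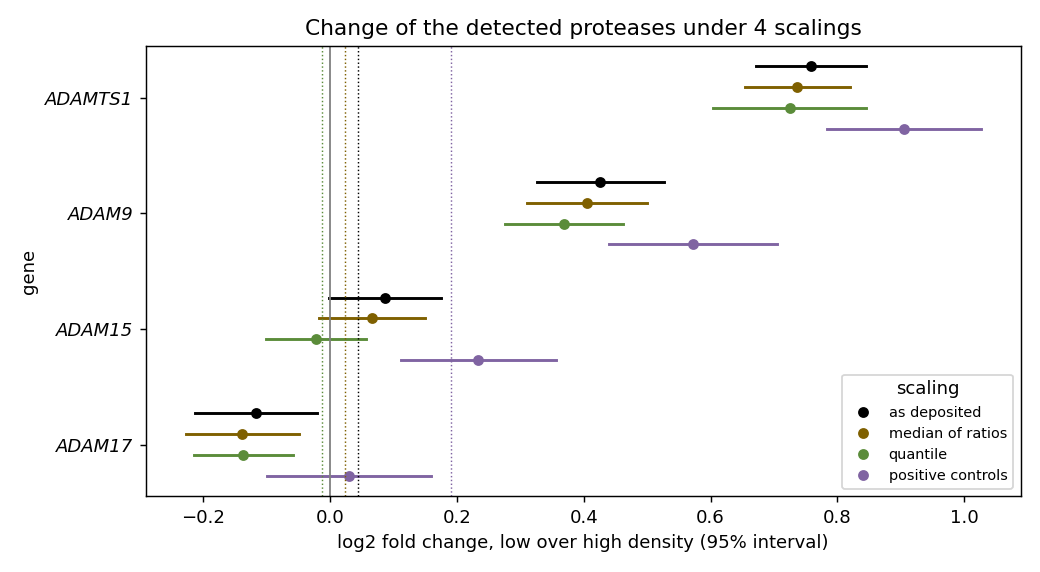
Log2 fold change of low over high density with its 95% interval (limma, 6 samples) for the 4 detected proteases under the deposited scaling and 3 others, with dotted lines at the median tested gene of each scaling. ADAMTS1 and ADAM9 lie right of 0 under all 4, whereas ADAM15 and ADAM17 each lie on both sides of 0.

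By Pearson correlation of log2 values over the 6 samples, the genes most like ADAM9 were CX3CL1 (r = 0.9988), EPN3 (0.9973) and ETV4 (0.9968). Those most like ADAMTS1 were PLCG1 (0.9977), CX3CL1 (0.9975) and SOX17 (0.9971). CX3CL1 encodes the membrane-bound chemokine fractalkine, itself a protein shed by ADAM17 and ADAM10, and gave 347.76, 304.5 and 325.01 at low and 161.39, 149.64 and 159.68 at high density. ADAM15 was most like DLC1 (0.9740), RBM47 (0.9599) and ITGA6 (0.9455), and ADAM17 most like NRP1 (0.9755), ACTG2 (0.9666) and SMAD1 (0.9642). Few barcodes carried NRP1, with a low density mean of 10.7 within background, and DLC1, with means of 31.5 at low and 21.3 at high density. RBM47 and SMAD1 did not pass (limma adjusted p = 0.0585 and 0.102). These r values describe 6 samples in 2 groups that share their scaling factors, so genes that change with density can correlate highly through that difference alone.

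The other genes of this system were taken from lists of proteases, inhibitors and known substrates. Both TIMP genes that were tested rose, where 38.8% of all tested genes rose. TIMP2 gave 804.31, 823.32 and 879.22 at low density, against 226.15, 265.8 and 265.73 at high density (log2 fold change 1.73 ± 0.06, limma adjusted p = 4.4e-94). TIMP1 rose less, from 163 ± 21.9 to 224 ± 7.64 (0.47 ± 0.09, adjusted p = 2.1e-06). The third, TIMP4, was at background. TIMP3, the TIMP known to inhibit ADAM17 most strongly, was not analysed here. The sheddase gene ADAM10 was not among the 8 panel genes with an ADAM or ADAMTS symbol.

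Among 12 other metzincin proteases on the panel, 4 were tested, of which 2 rose and 2 did not pass, where 38.8% of all tested genes rose. At low density the stromelysin gene MMP10 was higher by at least 2.51-fold and the gelatinase gene MMP2 by at least 1.91-fold, each against the mean high density background limit of 15.7 (limma adjusted p = 3.7e-09 and 2.2e-07).

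Of the EGF receptor family and its shed ligands, 2 of 4 tested genes rose and 2 did not pass, where 38.8% of all tested genes rose. Amphiregulin, the product of AREG, is released from the membrane by ADAM17. AREG gave 146.68, 156.27 and 169.08 at low density, against 71.73, 75.34 and 64.6 at high density, a log2 fold change of 1.15 ± 0.12 (limma adjusted p = 1.6e-18). The receptor gene EGFR rose from 890.65 ± 41.4 to 1303 ± 44.6 (0.55 ± 0.05), whereas ERBB2 (−0.03 ± 0.10) and ERBB3 (−0.18 ± 0.10) did not pass. AREG and EGFR thus moved opposite to the small change of ADAM17 under the deposited scaling. Under quantile normalization ERBB3 passed as a fall.

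TNF, the cytokine after which ADAM17 was named, was weakly detected. It gave 42.74, 38.4 and 36.63 at low density, against 21.92, 14.65 and 17.06 at high density, so the high density values straddled the background limit. It rose by 1.11 ± 0.22 on the log2 scale (limma adjusted p = 2.4e-06), and by 1.78 with the negative control mean subtracted. Of 17 tested genes for other shed surface proteins, TNF among them, 5 rose, 6 fell and 6 did not pass, with a median of 0.00. Of all 480 tested genes 38.8% rose and 27.5% fell. The positive control scaling gave 8 rises and 3 falls among the 17, and 240 and 76 among all 480.

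The other rises in that group included the hepatocyte growth factor receptor gene MET (1.05 ± 0.13), CX3CL1 (1.05 ± 0.09) and the adhesion gene ICAM1 (0.33 ± 0.11). The call of ICAM1 was lost without high density replicate 1 (0.24, limma adjusted p = 0.0730) and under quantile normalization, where its log2 fold change was 0.18. Falls were led by the neuropilin gene NRP1, which was at least 2.11-fold higher at high density with a low density mean within background, by the mucin gene MUC1 (−0.94 ± 0.08), the VEGF receptor gene KDR (−0.53 ± 0.21) and the Notch ligand gene JAG1 (−0.47 ± 0.04). The call of KDR did not hold when replicate 2 of the low density group was left out (−0.30, adjusted p = 0.190), when replicate 1 of the other group was left out (−0.49, adjusted p = 0.0948) or when positive control scaling was used (−0.39, adjusted p = 0.0907). Nor did KDR pass without the mean trend (adjusted p = 0.054) or by the methods' t-test (0.133).

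Genes for secreted and matrix substrates rose in 4 of 5 cases tested, where 38.8% of all tested genes rose. Under quantile normalization 3 of the 5 rose and 1 fell, where 151 of all 480 genes rose and 147 fell. THBS1, which encodes thrombospondin 1, a substrate of ADAMTS1, gave 387.58, 361.65 and 390.76 at low density against 232.12, 254.29 and 270.6, and rose without overlap (0.59 ± 0.08, limma adjusted p = 1.9e-13), and the proteinase inhibitor gene TFPI2 rose by 0.67 ± 0.09. FN1, which encodes fibronectin, gave 34.0, 32.15 and 36.63 at low density against 17.93, 13.6 and 24.38, the latter on both sides of the background limit. It rose by 0.88 ± 0.23, and by 1.56 with the negative control mean subtracted. COL1A1, the only fibroblast marker above the floor, also passed (0.58 ± 0.21, limma adjusted p = 0.0123). Its call was lost without high density replicate 1 (0.43, adjusted p = 0.108), without low density replicate 2 (0.49, adjusted p = 0.0504) and with quantile-normalized values (0.52, adjusted p = 0.0585), and it was 0.93 with the negative control mean subtracted. By the methods' t-test COL1A1 did not pass either (adjusted p = 0.0664). VCAN encodes versican. Its values were 50.51, 66.08 and 45.09 at low and 42.84, 38.72 and 34.13 at high density (0.46 ± 0.18, adjusted p = 0.0161), and the call did not hold when replicate 2 of the low density group (0.31, adjusted p = 0.151) or replicate 3 of the other group (0.38, adjusted p = 0.0685) was left out, or under quantile normalization (0.30, adjusted p = 0.160). VCAN also did not pass by the methods' t-test (adjusted p = 0.108).

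Integrin genes whose products can bind disintegrin domains rose in 4 of 5 cases tested, with none of the 5 falling, where 38.8% of all tested genes rose. ITGB3, the beta 3 chain of the RGD-binding vitronectin receptor, was higher by at least 3.40-fold (limma adjusted p = 3.9e-14). ITGA3 rose by 0.72 ± 0.05, ITGA6 by 0.32 ± 0.07 and ITGA5 by 0.29 ± 0.11. ITGA5 lost its call without high density replicate 2 (adjusted p = 0.115) or 3 (0.0834). It also lost it without the mean trend (0.0589) and by the methods' t-test (0.130). Under quantile normalization 2 of the 5 rose, against 151 of all 480 genes, with ITGA6 at 0.21 and ITGA5 at 0.15 and neither called. ITGB1, the common beta 1 chain, did not pass, with 4191 ± 38.9 normalized counts at low density against 4220 ± 123. ITGA9, also on this list, missed the floor with a mean of 18.2 and was not tested. It went the other way, with 13.6, 6.25 and 17.85 at low density against 20.92, 27.21 and 23.16. Against the mean low density limit of 14.3 it was at least 1.66-fold higher at high density.

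**Figure D4:**
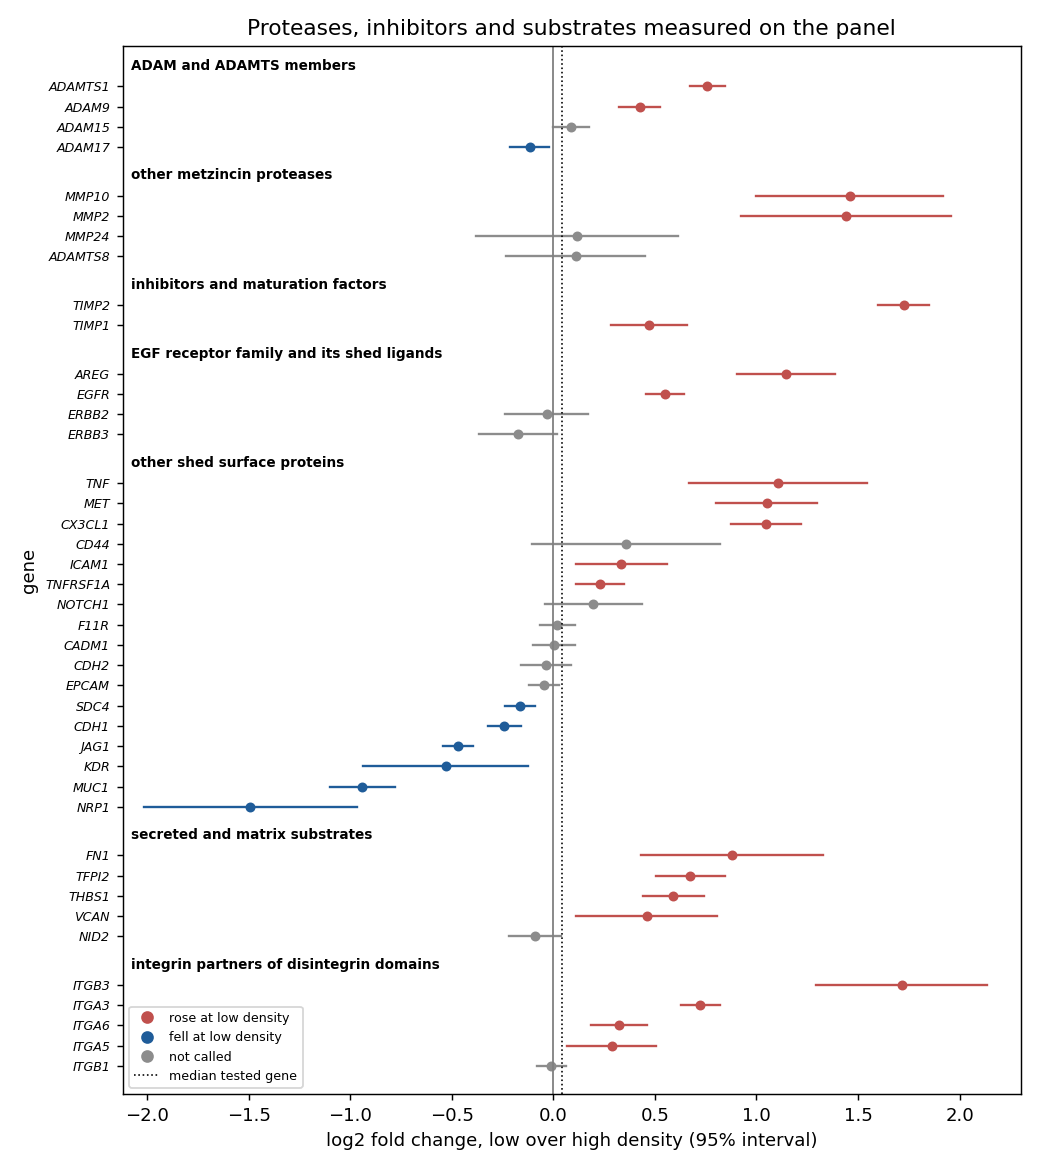
Log2 fold change of low over high density with its 95% interval (limma, 6 samples) for each tested gene of 7 lists, in red where it rose, blue where it fell and gray where it did not pass, with a dotted line at the median tested gene (0.04). TIMP2 (1.73) and ITGB3 (1.72) lie farthest right and NRP1 (−1.49) farthest left, while the 4 proteases span −0.12 to 0.76.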

How the data were processed

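The authors deposited a table of 784 probes for 6 samples (770 genes, 30 of them panel reference genes, 8 negative and 6 positive controls). Gene values were deposited as a signal. From the values it was inferred that each sample's barcode counts had been scaled by a single factor, after which the reference genes had a geometric mean of 383.27 to 383.28. Control probes were unscaled, no background had been subtracted, and the software was not given in the sources used here. Values under 100 were whole multiples of one step for 98.9% to 100% of genes per sample (tolerance 0.1 count), and this step gave the barcode counts.

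Reference genes and genes with a mean under 20 were left out. The remaining 480 were fitted as log2(value + 1) with limma 3.58.1 in R 4.3.3 (empirical Bayes, mean trend, two-sided, no block), a scale that understates changes of low genes. The fit was tested on simulated data. Of genes given a log2 change of 0.25 it called 41.5%, against 90.9% at 0.5 and 97.1% at 1. Of genes given no change it called 1.07%. Fold changes against a group mean within background were given as bounds against the mean limit of that group. Named were all members, up to 4 rises and 4 falls per list, tested inhibitors and the 3 most similar genes. Genes outside this rule (ADAMTS8, ADAMTS12, ERBB2, ERBB3, ITGB1, ITGA9, TIMP4, PTPRC, EPCAM, CDH1 and KRT7) were picked for naming with their values known. Members and lists were chosen with earlier results of these data known. Alternatives were other filters, pseudocount, scalings, priors and tests, a block on replicate number, and the omission of each sample in turn.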

Additional observations from a re-analysis of the deposited data

How the results depend on the processing

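ADAMTS1 and ADAM9 kept their rise and their call in all 16 alternatives, with adjusted p up to 4.9e-05 without the mean trend and 7.6e-04 by the methods' t-test for ADAMTS1, and 2.6e-04 and 0.0010 for ADAM9. ADAM15 was −0.022 (adjusted p = 0.579) under quantile normalization and 0.23 (4.1e-04) with scaling to the positive controls, and leaving out single samples gave 0.060 to 0.11, with a call without high density replicate 2 (0.0473). ADAM17 turned to 0.030 (0.701) with the positive controls and kept −0.12 without a call with no mean trend (0.0829) and by the methods' t-test (0.0809). Leaving out single samples gave −0.14 to −0.078, so the count of falling members was 0 to 1, and it was 0 in the 3 settings just named. The cause of these changes was not tested. The positive controls left 76 falls among all genes. Under quantile normalization, the log2 ratio changes of ADAM9 to ADAM17 and ADAM15 to ADAM17 moved to 0.51 and 0.11. Of 36 other named genes, 25 kept direction and call throughout, and SMAD1 reversed (0.060, from −0.09 without a call) with the positive controls. The replicate block gave 320 called genes instead of 318 and an adjusted p of 0.0382 for ADAM17, and changed no member's call. Samples with the same number did not deviate together (r = 0.117, −0.111 and −0.035), so the numbers were not taken as pairs. Leaving out single samples gave 293 to 316 genes called. The planned count-based tests on recovered barcodes were not run. The step in high density replicate 1 was 0.996, close to 1, and its values under 100 were whole multiples of that step for 100% of genes. Values within background, as most of ADAM8 and all of ADAM28, could not be told from the negative controls.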
